A study of Rattus norvegicus with 20 samples.

Results

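Cholesterol is made from acetyl-CoA, and 29 genes of its synthesis, control and transport were followed here in the rat mesenteric artery. The genes were chosen by name: 8 of the mevalonate and prenyl steps, 10 of the steps from squalene to cholesterol, 5 of the control by sterol regulatory element-binding proteins (SREBPs), and 6 of sterol transfer, storage and export. All 29 had a probe on the array, 27 under the current symbol and 2 under an older one (Acat2 as Acat3 and Sc5d as Sc5dl). Of the 29, 28 were bright enough to be tested, among 16424 genes tested in all. Soat1, the enzyme that stores cholesterol as esters, was well above background on 1 array each of SHRSP, SHR, 1K1C and 2K1C and on 0 WKY arrays, so only a bound exists for it.

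Cells sense their own cholesterol in the endoplasmic reticulum. When sterols are scarce, Scap escorts the SREBPs to the Golgi, where they are cut and released as transcription factors for the synthesis genes and for lipoprotein uptake. When sterols are plentiful, Insig1 and Insig2 hold Scap back, and oxysterols act on liver X receptors, which raise the exporters Abca1 and Abcg1 and the SREBP gene Srebf1. In fat cells Srebf1 and Insig1 are abundant and respond to insulin, and arterial cells that cannot export sterol become foam cells.

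Total RNA of whole mesenteric artery was measured on 20 single-colour arrays in 5 groups of 4, which the labels call biological replicates. The stroke-prone spontaneously hypertensive rats (SHRSP/Izm) and the spontaneously hypertensive rats (SHR/Izm) were left without operation and carry inherited hypertension. Wistar-Kyoto rats (WKY/Izm) were given 1-kidney, 1-clip surgery (1K1C), in which a renal artery is clipped and the other kidney is removed, or 2-kidney, 1-clip surgery (2K1C), in which the other kidney is kept, or had no operation (WKY below). All rats are labelled with an age of 6 weeks and the operations with 3 weeks; whether that is the age at operation or at sampling is not settled by the labels, and no sham operation was analysed here. SHRSP and SHR shared 1 slide and 1K1C and WKY another, while 2K1C lay alone on the third slide, so that in all comparisons but SHRSP with SHR and 1K1C with WKY the slide and the group cannot be told apart; within those 2, the groups sat in different rows.

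Levels are log2 of the signal relative to the array's 75th percentile, so 0 is the 75th percentile and a difference of 1 is a doubling; they are listed in the order of replicates 1 to 4, and a level of one probe is not comparable with that of another. Group differences were fitted with limma over all 20 arrays, and a gene is called where its p, adjusted by Benjamini-Hochberg over the 16424 genes, is under 0.05. Some genes were called only in a fit that left out 1 array. The number of all genes called in such a fit is given only for 1K1C against 2K1C. Other calls of this kind cannot be read as particular to sterol genes. Between 66.5% and 71.7% of the spots of an array were well above background, and the number of arrays limits the precision. All 7 smooth muscle markers and all 7 endothelial markers were measured, with smooth muscle means from 0.31 on an array of 1K1C to 4.57 on an array of 2K1C. The arrays were not equal in other tissues: the mean of 7 white adipocyte markers ran from 0.24 to 2.85, and that of 4 neuron markers from -1.77 to 4.65, the highest being replicate 1 of WKY. In a whole artery, fewer cells of a type and less RNA per cell cannot be told apart.

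Few sterol genes passed the test after adjustment. In SHR against WKY 1 of the 28 tested genes was called, Dhcr7, lower in SHR, beside 1.84% of all genes. Between the inherited forms (SHRSP and SHR, averaged) and the renovascular forms (1K1C and 2K1C, averaged) 1 was called, Abca1, lower in the inherited forms, beside 3.16% of all genes. None was called in the other 5 comparisons, beside 2.39% of all genes in SHRSP against WKY, 0.0122% in 2K1C against WKY, 0% in 1K1C against WKY, 0.359% in SHRSP against SHR and 0% in 1K1C against 2K1C. At an unadjusted p under 0.05 limma gave 6 higher and 5 lower of the 28 in the inherited against the renovascular forms, beside 17.6% of all genes, and 1 higher and 2 lower in SHR against WKY, beside 13.97%. It gave 6 sterol genes in SHRSP against WKY, 6 in 2K1C against WKY, 0 in 1K1C against WKY, 1 in SHRSP against SHR and 9 in 1K1C against 2K1C, beside 16.7%, 22%, 9.09%, 3.56% and 21.5% of all genes. Seen as a list, the members lay a little below the rest of the genes in 2K1C against WKY (21 of 28 lower, median -0.24, against 0.03 for all genes) and in SHR against WKY (19 of 28 lower, median -0.22, against 0.02), and above them in 1K1C against 2K1C (21 of 28 higher, median 0.25, against 0.01) and SHRSP against SHR (19 of 28 higher, median 0.15, against -0.01). In 1K1C against WKY 15 of 28 were higher (median 0.04, against 0.10 for all genes), in SHRSP against WKY 9 of 28 (median -0.07, against 0.00), and in the inherited against the renovascular forms 17 of 28 (median 0.05, against -0.04). The 4 comparisons with WKY share its 4 arrays, and replicate 1 of WKY bore on the lists: without it 14 of 28 were lower in SHR (median -0.02) and 16 of 28 in 2K1C (median -0.03), and 12 of 28 in SHRSP (median 0.08).

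**Figure D1:**
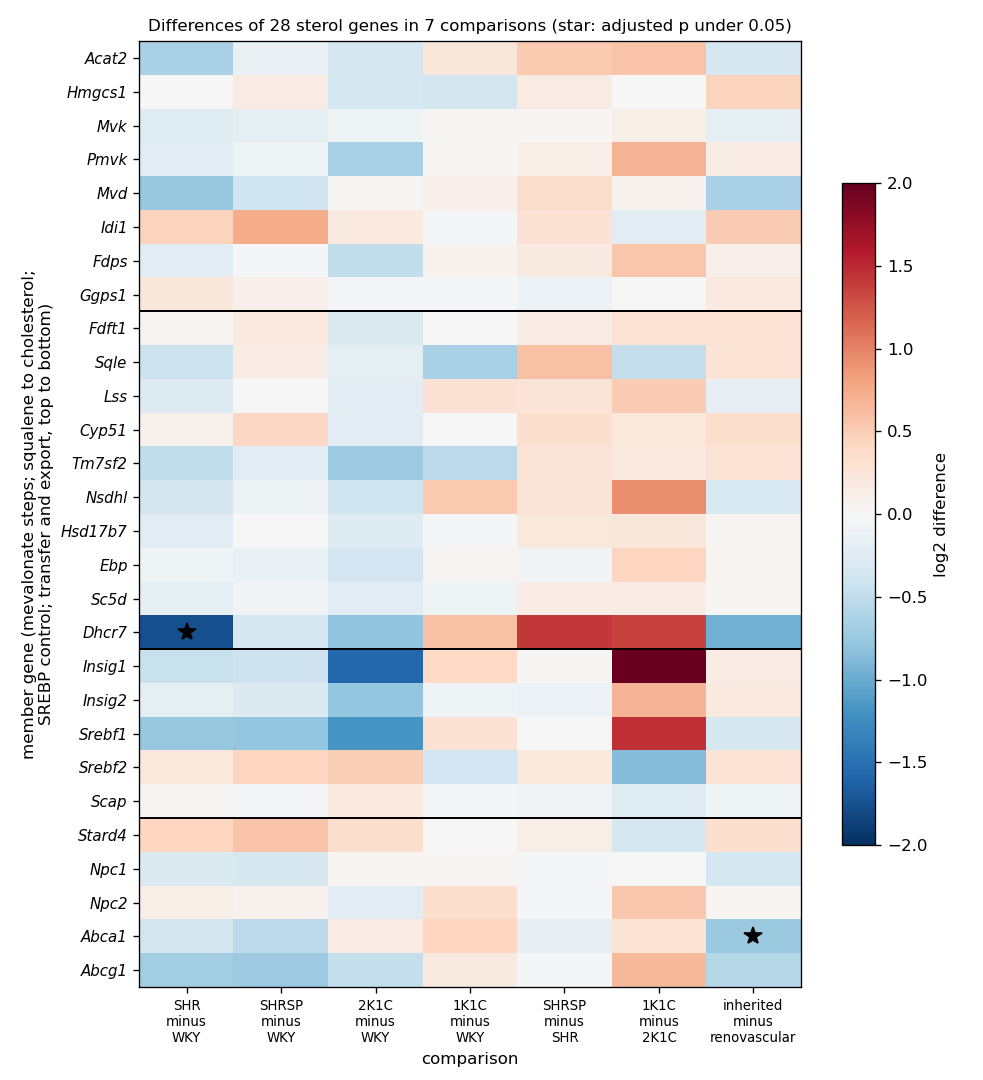
Log2 differences of the 28 tested sterol genes (rows, grouped by role) in the 7 comparisons (columns, the group named on top minus the group under it); red is higher and blue lower in the group named on top, and a star marks an adjusted p under 0.05. The 2 stars are Dhcr7 in SHR minus WKY and Abca1 in inherited minus renovascular, and the deepest colour away from them is Insig1 in 1K1C minus 2K1C, at 1.97.

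The mevalonate steps build the isoprene units from which sterols and prenyl anchors are made: Acat2 and Hmgcs1 make the first intermediates, Mvk, Pmvk and Mvd turn mevalonate into isopentenyl diphosphate, Idi1 isomerises it, Fdps joins the units and Ggps1 leads off to protein prenylation. None of the 8 was called in any of the 7 comparisons. The largest difference among them was that of Mvd in SHR, with levels of -0.55, -1.73, -1.34 and -1.08 in SHR against 0.73, -0.80, -0.69 and -0.87 in WKY. The groups overlapped, and the difference of -0.76 ± 0.42 (SE) had an adjusted p of 0.44 in limma. Mvd also differed by -0.65 ± 0.30 between the inherited and the renovascular forms (adjusted p 0.267), with levels of -0.68, -0.72, -1.25 and -0.60 in SHRSP, of 0.63, 0.14, -1.01 and -0.998 in 1K1C and of -0.45, -0.57, -1.01 and 0.49 in 2K1C. All but 1 of the 8 lay higher in SHRSP than in SHR, with a median of 0.17, and the exception, Ggps1, differed by -0.12 ± 0.12. Pmvk differed by -0.64 ± 0.22 in 2K1C against WKY (adjusted p 0.13 in limma) and was called there without replicate 3 of 2K1C (-0.82, adjusted p 0.0476).

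Idi1 had levels opposite to those of Mvd in the inherited forms. It stood at 1.72, 1.44, 1.63 and 1.41 in SHRSP, against 2.17, 0.14, 0.12 and 0.81 in WKY, a difference of 0.74 ± 0.32 (adjusted p 0.259 in limma). The 4 SHRSP arrays lay above 3 of the WKY arrays and below replicate 1 of WKY. In SHR it stood at 0.77, 1.15, 1.43 and 1.69, in 1K1C at 0.71, 0.58, 0.99 and 0.87 and in 2K1C at 1.05, 0.81, 1.17 and 0.99. Without replicate 1 of WKY, Idi1 was called higher in SHRSP (1.19, adjusted p 0.00381) and in SHR (0.90, adjusted p 0.0354) than in WKY. Acat2 stood at 1.91, 1.85, 1.60 and 2.28 in SHRSP, against 2.28, 1.02, 1.17 and 1.08 in SHR, a difference of 0.52 ± 0.41 with an adjusted p of 1. Replicate 1 of SHR lay at the top of the SHRSP range and the other 3 below it. In 1K1C Acat2 stood at 3.02, 2.75, 1.79 and 1.49, in 2K1C at 1.52, 1.35, 1.41 and 2.50 and in WKY at 3.19, 1.61, 1.80 and 1.54.

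From squalene onward Fdft1 makes squalene, Sqle oxidises it, Lss closes the sterol rings, and Cyp51, Tm7sf2, Nsdhl, Hsd17b7, Ebp, Sc5d and Dhcr7 trim and reduce the product to cholesterol. Of these 10, Dhcr7, the reductase of the final step, was the gene with the largest difference between any group and WKY. It was measured by this probe, whose 60 bases lie at chr1:204258565-204258624 on the plus strand in the rn4 coordinates of the array design. The 250 bases before the start site of the gene are given from RefSeq (GRCr8, chr1:208444184-208444433, plus strand), as Dhcr7 was the only member called between SHR and WKY:
Dhcr7 probe: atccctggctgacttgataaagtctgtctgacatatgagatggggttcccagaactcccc
Dhcr7 promoter: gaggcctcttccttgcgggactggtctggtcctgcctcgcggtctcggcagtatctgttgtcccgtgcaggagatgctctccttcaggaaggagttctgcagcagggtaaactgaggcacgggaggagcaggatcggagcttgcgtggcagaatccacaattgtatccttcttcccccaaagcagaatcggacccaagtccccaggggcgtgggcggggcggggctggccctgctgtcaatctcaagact
The promoter window held neither of the 2 motifs marked in capitals in the promoters below.

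Dhcr7 stood at 0.53, -0.95, -0.84 and -0.97 in SHR, against 0.70, 1.61, 1.42 and 1.09 in WKY. Every SHR array lay below every WKY array, and replicate 1 of SHR lay apart from the other 3. The difference was -1.77 ± 0.40 (SE; 95% interval -2.61 to -0.92; n = 4 each), which is 0.294 times the WKY signal, with an adjusted p of 0.0325 in limma. The groups did not overlap for 6.14% of all genes in this comparison. The call was lost in fits that left out replicate 2 or 3 of WKY (adjusted p 0.092 and 0.106) or replicate 2, 3 or 4 of SHR (0.105, 0.104 and 0.111), while leaving out replicate 1 of SHR gave -2.13 with an adjusted p of 0.00565. With the arrays of these 2 groups alone the adjusted p was 0.114.

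In the other strain with inherited hypertension the level lay nearer to that of WKY. Dhcr7 stood at 0.92, 1.33, 0.68 and 0.48 in SHRSP, and the difference of SHRSP from SHR on their common slide was 1.41 ± 0.40 (95% interval 0.57 to 2.25; adjusted p 0.325 in limma). The SHRSP and SHR arrays overlapped only through replicate 1 of SHR. Against WKY the SHRSP difference was -0.35 ± 0.40 (adjusted p 0.698). In the operated WKY rats Dhcr7 stood at 2.48, 2.70, 1.37 and 0.62 in 1K1C, against 0.23, 0.61, 0.56 and 0.30 in 2K1C. These groups did not overlap, by a small margin between replicate 4 of 1K1C (0.62) and replicate 2 of 2K1C (0.61). The difference of 1.37 ± 0.40 had an adjusted p of 0.0782 in limma. The 2K1C arrays also lay below all 4 WKY arrays (-0.78 ± 0.40, adjusted p 0.258), a direction that turned in a fit with a white adipocyte marker mean as a term (0.078, adjusted p 0.902), whereas the 1K1C arrays lay on both sides of them (0.59 ± 0.40, adjusted p 0.661). The inherited forms differed from the renovascular forms by -0.96 ± 0.28 (adjusted p 0.0762), and this was called without replicate 1 of SHR (-1.14, adjusted p 0.0166) or replicate 4 of 1K1C (-1.16, adjusted p 0.0142).

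None of the other 9 genes from squalene to cholesterol was called in any of the 7 comparisons. In 2K1C against WKY all 10, Dhcr7 included, were lower, from -0.78 to -0.18 with a median of -0.27, and none was called. That count rested on replicate 1 of WKY, which was the highest of the 4 WKY arrays for Sqle, Cyp51, Tm7sf2, Hsd17b7, Sc5d and others; without it 6 of the 10 were lower and the median was -0.09. In SHRSP against SHR 9 of the 10 were higher (median 0.26), with Ebp the exception at -0.06 ± 0.16, and none was called. Nsdhl was 0.93 ± 0.30 higher in 1K1C than in 2K1C (adjusted p 0.0944 in limma), with levels from -1.10 to 0.45 in 1K1C and from -1.47 to -0.95 in 2K1C.

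Sqle, a rate-limiting step after mevalonate, stood at 1.75, 1.08, 1.12 and 1.35 in SHRSP, against 0.09, 0.75, 1.04 and 1.06 in SHR. All SHRSP arrays were above all SHR arrays, but the gap between the groups was narrow, and the difference of 0.59 ± 0.38 had an adjusted p of 1. Cyp51 was the only other member whose SHRSP and SHR arrays did not overlap (0.32 ± 0.23, adjusted p 1), beside 3.5% of all genes without overlap. Without replicate 1 of WKY, Cyp51 was called higher in SHRSP than in WKY (0.73, adjusted p 0.0168 in limma). In 1K1C Sqle stood at 0.40, 0.07, 0.73 and 0.86, against 2.74, 0.35, 0.73 and 0.85 in WKY, a difference of -0.65 ± 0.38 (adjusted p 0.633). Outside replicate 1 of WKY the 2 groups covered nearly the same range, and without it the difference was -0.13. In 2K1C it stood at 1.38, 0.65, 1.01 and 0.92. Tm7sf2 gave the same picture, at -2.13, -1.96, -2.55 and -2.73 in 1K1C against -0.68, -2.13, -1.78 and -2.67 in WKY (-0.53 ± 0.32, adjusted p 0.641), with -1.99, -1.98, -2.24 and -1.93 in SHRSP, -1.55, -2.55, -2.72 and -2.37 in SHR and -2.52, -2.59, -2.71 and -2.30 in 2K1C.

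**Figure D2:**
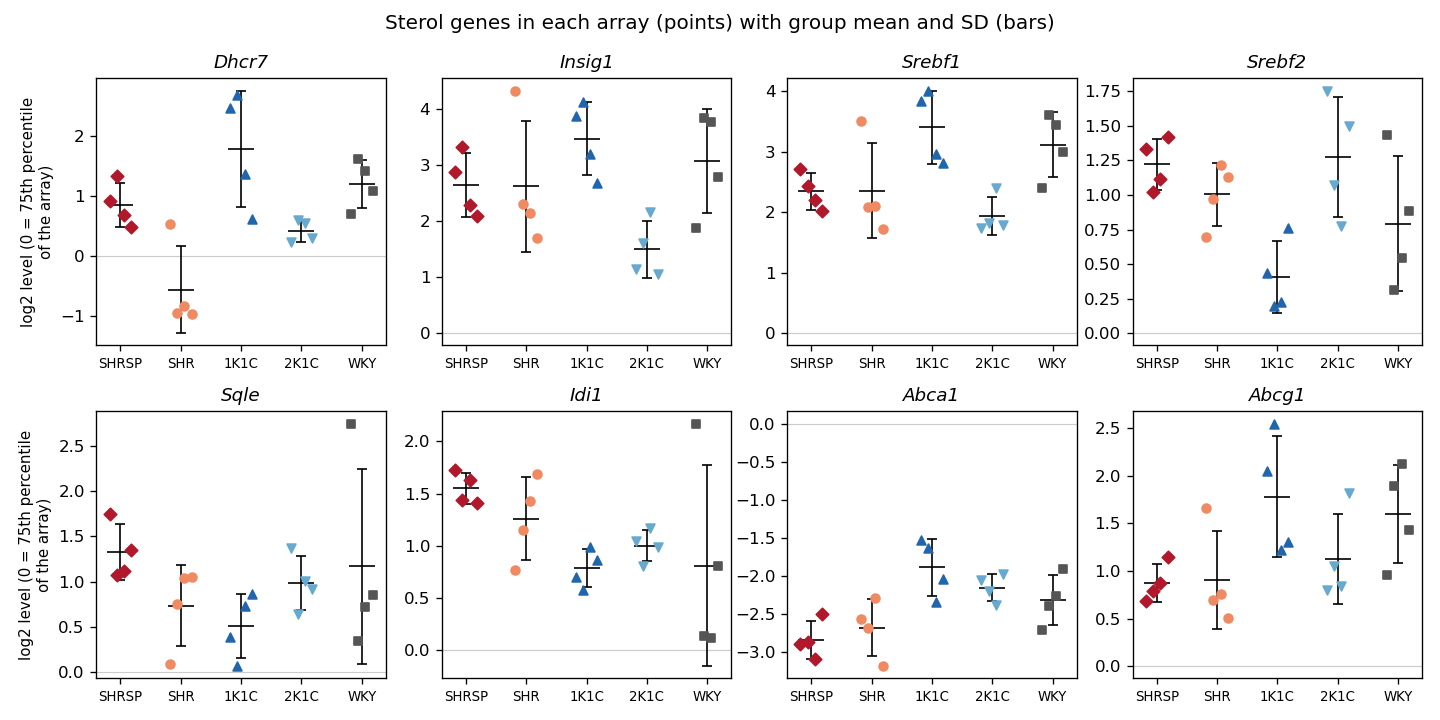
Levels of 8 sterol genes in each array (points; y axis, log2 signal relative to the array's 75th percentile) in the 5 groups, with the group mean and SD as bars. Dhcr7 is low in 3 SHR arrays, Insig1 and Srebf1 are low in 2K1C, Abca1 is lower in SHRSP and SHR than in 1K1C and 2K1C, and replicate 1 of WKY stands out for Sqle and Idi1.

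Of the 5 control genes, Insig1 gave the largest difference of any member, between the 2 operations, and none was called in any of the 7 comparisons. The 250 bases before the start sites of Insig1 (chr4:8057770-8058019, minus strand), Srebf1 (chr10:45529165-45529414 for the upstream and chr10:45519011-45519260 for the downstream of its 2 start sites, minus strand) and Srebf2 (chr7:115543057-115543306, plus strand) are shown from RefSeq, GRCr8, since these genes separated the operations; capitals mark CCAAT, the box bound by NF-Y, a partner of the SREBPs, or its reverse complement ATTGG, and CACGTG, an E-box:
Insig1: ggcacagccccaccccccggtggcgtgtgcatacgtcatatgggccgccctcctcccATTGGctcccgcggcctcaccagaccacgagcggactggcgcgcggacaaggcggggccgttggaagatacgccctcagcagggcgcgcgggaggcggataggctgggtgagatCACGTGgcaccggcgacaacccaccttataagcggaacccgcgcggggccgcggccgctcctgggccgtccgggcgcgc
Srebf1 upstream start: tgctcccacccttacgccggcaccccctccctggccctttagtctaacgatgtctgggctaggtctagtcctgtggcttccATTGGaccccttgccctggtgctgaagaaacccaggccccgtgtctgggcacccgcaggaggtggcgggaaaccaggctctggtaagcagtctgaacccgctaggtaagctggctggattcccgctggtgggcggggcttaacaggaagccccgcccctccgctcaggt
Srebf1 downstream start: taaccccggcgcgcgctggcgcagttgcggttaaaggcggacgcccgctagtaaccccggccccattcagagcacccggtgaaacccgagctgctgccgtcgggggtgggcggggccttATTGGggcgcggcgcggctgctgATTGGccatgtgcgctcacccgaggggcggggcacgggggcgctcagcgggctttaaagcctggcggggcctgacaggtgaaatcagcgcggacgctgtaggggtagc
Srebf2: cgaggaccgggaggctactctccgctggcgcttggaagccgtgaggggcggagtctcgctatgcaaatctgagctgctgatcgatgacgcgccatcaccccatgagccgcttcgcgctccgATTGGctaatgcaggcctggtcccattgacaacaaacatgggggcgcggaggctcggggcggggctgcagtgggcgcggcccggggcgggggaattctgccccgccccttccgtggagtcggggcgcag
Among the promoter windows of 300 bases (250 before to 50 after a start site) that RefSeq gave for 24 of the 29 genes, 19 of 25 (76.0%) held CCAAT on either strand, against 37.2% of the windows of tested genes and 37.5% of all windows. GGGCGG, a GC box, was in 84.0% of the 25 against 59.5% of the windows of tested genes, and CACGTG was in 4 of the 25 windows (those of Insig1, Scap, Sc5d and Abca1), against 9.0%. The sterol element letters TCACNCCAC were in 0 of the 25 and in 1.05% of the windows of tested genes. These matches describe letters only. Which start site the Srebf1 probe's transcripts came from was not tested.

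Insig1 stood at 3.86, 4.11, 3.20 and 2.67 in 1K1C, against 1.15, 1.60, 2.16 and 1.06 in 2K1C. Every 1K1C array was above every 2K1C array, and the difference was 1.97 ± 0.53, or 3.92-fold, with an adjusted p of 0.0736 in limma. In WKY it stood at 1.87, 3.83, 3.77 and 2.78, from which 2K1C differed by -1.57 ± 0.53 (adjusted p 0.132) and 1K1C by 0.40 ± 0.53 (adjusted p 0.8). Replicate 1 of WKY lay within the 2K1C range and the other 3 above it. In SHRSP it stood at 2.87, 3.32, 2.28 and 2.09 and in SHR at 4.32, 2.30, 2.14 and 1.70. Replicate 1 of SHR was the highest of all 20 arrays.

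Srebf1 was also higher on every 1K1C array. It stood at 3.84, 4.01, 2.95 and 2.82 in 1K1C, against 1.75, 1.82, 2.40 and 1.78 in 2K1C, a difference of 1.47 ± 0.36 (2.77-fold, adjusted p 0.0731 in limma) without overlap. Against WKY, where it stood at 2.40, 3.60, 3.45 and 3.00, it was -1.18 ± 0.36 lower in 2K1C (adjusted p 0.118) without overlap, though by less than 0.01 between the closest arrays. In SHRSP it stood at 2.72, 2.43, 2.21 and 2.02 and in SHR at 3.52, 2.09, 2.10 and 1.73. The differences from WKY were -0.77 ± 0.36 in SHRSP (adjusted p 0.297) and -0.75 ± 0.36 in SHR (adjusted p 0.363), and the arrays overlapped in both. Insig2 lay higher in 1K1C (-2.51 to -1.96) than in 2K1C (-3.17 to -2.74), by 0.69 ± 0.17 (adjusted p 0.0731), and its second probe gave 0.41. Its difference of 2K1C from WKY was -0.77 ± 0.17 (adjusted p 0.0903), without overlap, and was called without replicate 3 of 2K1C (-0.83, adjusted p 0.0362) or replicate 4 of WKY (-0.81, adjusted p 0.0257). Dhcr7, Srebf1 and Insig2 were the 3 members whose 2K1C and WKY arrays did not overlap, beside 7.76% of all genes.

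Srebf2 encodes the main SREBP of cholesterol synthesis. It stood at 0.44, 0.19, 0.23 and 0.76 in 1K1C, against 1.76, 1.07, 0.78 and 1.498 in 2K1C, a difference of -0.87 ± 0.23 (adjusted p 0.0736 in limma). The 2 groups did not overlap, by a small margin between replicate 4 of 1K1C and replicate 3 of 2K1C. In WKY it stood at 1.43, 0.31, 0.54 and 0.88, in SHRSP at 1.33, 1.02, 1.11 and 1.42 and in SHR at 0.70, 0.97, 1.22 and 1.13. Scap, the escort, differed by at most 0.23 in any of the 7 comparisons. In 1K1C against 2K1C 4 members (Insig1, Insig2, Srebf1, Dhcr7) were higher and 1 (Srebf2) lower without overlap, beside 9.75% of all genes without overlap in either direction. Without replicate 4 of 1K1C 9 members were called in this comparison, together with 1896 genes in all, and without replicate 3 of 2K1C 4 members together with 296 genes.

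Stard4 carries sterol between membranes in the cytosol, Npc1 and Npc2 release it from lysosomes, and Abca1 and Abcg1 pass it to lipoproteins outside the cell. Of these, Abca1, which loads apolipoprotein A-I, was called. Its probe lies at chr5:70493613-70493672 on the minus strand (rn4), and its promoter window at chr5:72596474-72596723 on the minus strand (GRCr8, RefSeq); both are given because Abca1 was the only member called between the inherited and the renovascular forms, and the capitals mark an E-box:
Abca1 probe: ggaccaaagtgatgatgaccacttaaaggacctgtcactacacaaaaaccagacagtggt
Abca1 promoter: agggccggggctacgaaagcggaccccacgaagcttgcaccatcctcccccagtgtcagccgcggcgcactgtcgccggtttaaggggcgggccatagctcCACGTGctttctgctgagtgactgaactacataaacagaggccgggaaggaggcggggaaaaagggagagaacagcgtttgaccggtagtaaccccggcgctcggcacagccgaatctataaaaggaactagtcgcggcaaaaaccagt
Abca1 stood at -2.90, -2.87, -3.09 and -2.50 in SHRSP and at -2.57, -2.68, -2.28 and -3.19 in SHR, against -1.53, -1.63, -2.34 and -2.04 in 1K1C and -2.05, -2.20, -2.39 and -1.98 in 2K1C. Only replicate 3 of SHR reached into the range of the operated rats. The mean of the inherited forms was -0.74 ± 0.15 below that of the renovascular forms (95% interval -1.06 to -0.42; 0.599 times the signal; n = 8 arrays each), with an adjusted p of 0.00979 in limma.

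WKY stood between the 2 kinds of hypertension for Abca1, at -2.71, -2.39, -2.26 and -1.91. Against it the differences were -0.52 ± 0.22 in SHRSP (adjusted p 0.234), -0.37 ± 0.22 in SHR (0.481), 0.43 ± 0.22 in 1K1C (0.576) and 0.16 ± 0.22 in 2K1C (0.673), so neither side was called on its own. The call between the 2 kinds held in each of the 16 fits that left out 1 array, with adjusted p from 0.0048 to 0.026, and was lost with no scaling between arrays (-0.47, adjusted p 0.149). The inherited forms lay on a slide of their own, and the slide and the kind of hypertension cannot be told apart.

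Abcg1, the partner exporter that loads high-density lipoprotein, stood at 0.69, 0.79, 0.88 and 1.15 in SHRSP, against 0.95, 1.89, 2.12 and 1.43 in WKY. Only replicate 1 of WKY lay inside the SHRSP range, and the difference of -0.72 ± 0.33 had an adjusted p of 0.278 in limma. In SHR it stood at 1.66, 0.70, 0.75 and 0.50, in 1K1C at 2.05, 2.55, 1.22 and 1.31 and in 2K1C at 0.80, 1.06, 0.84 and 1.82. Npc1 was -0.36 ± 0.10 lower in the inherited than in the renovascular forms (adjusted p 0.0623), and its second probe gave -0.38. It was called without replicate 1 of SHR (-0.39, adjusted p 0.0459) or replicate 3 of 1K1C (-0.40, adjusted p 0.0404). Stard4 was 0.57 ± 0.20 higher in SHRSP than in WKY (adjusted p 0.155; without replicate 4 of WKY 0.75, adjusted p 0.0237) and 0.43 ± 0.20 higher in SHR (adjusted p 0.336). Its second, dimmer probe gave 0.05 in SHRSP and -0.33 in SHR. The probes therefore disagree on the size of the difference in SHRSP and on its direction in SHR. Npc2 was 0.54 ± 0.19 higher in 1K1C than in 2K1C (adjusted p 0.115).

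Insig1 and Srebf1 moved with the white adipocyte markers (Adipoq, Plin1, Lep, Cidec, Lipe, Retn and Pnpla2, all 7 tested). The mean of these markers was 2.41, 2.85, 1.78 and 1.53 in 1K1C, against 0.24, 0.90, 1.24 and 0.71 in 2K1C, and 1.42, 1.64, 1.33 and 0.78 in SHRSP, 2.67, 1.27, 1.11 and 0.95 in SHR and 0.81, 2.38, 2.29 and 1.52 in WKY. Their summed signal, on the log2 scale, ran from 6.39 to 7.27 in SHRSP, 6.71 to 8.12 in SHR, 7.07 to 8.31 in 1K1C, 5.59 to 6.69 in 2K1C and 6.33 to 7.79 in WKY. In a limma fit with the groups and this mean as terms, chosen after the data were seen, the slope was called for 10 of the 28 sterol genes, beside 20.5% of all genes. It was positive for Insig1 (1.28 ± 0.10 log2 units per log2 unit of the marker mean, SE; adjusted p 7.95e-08), Dhcr7 (0.88 ± 0.12), Srebf1 (0.85 ± 0.08), Abcg1 (0.59 ± 0.14), Nsdhl (0.46 ± 0.14), Npc2 (0.33 ± 0.08) and Insig2 (0.27 ± 0.08). It was negative for Sqle (-0.75 ± 0.15, adjusted p 0.0017), Idi1 (-0.57 ± 0.14) and Srebf2 (-0.46 ± 0.09). The called synthesis genes were split, Dhcr7 and Nsdhl having positive slopes and Sqle and Idi1 negative ones.

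**Figure D3:**
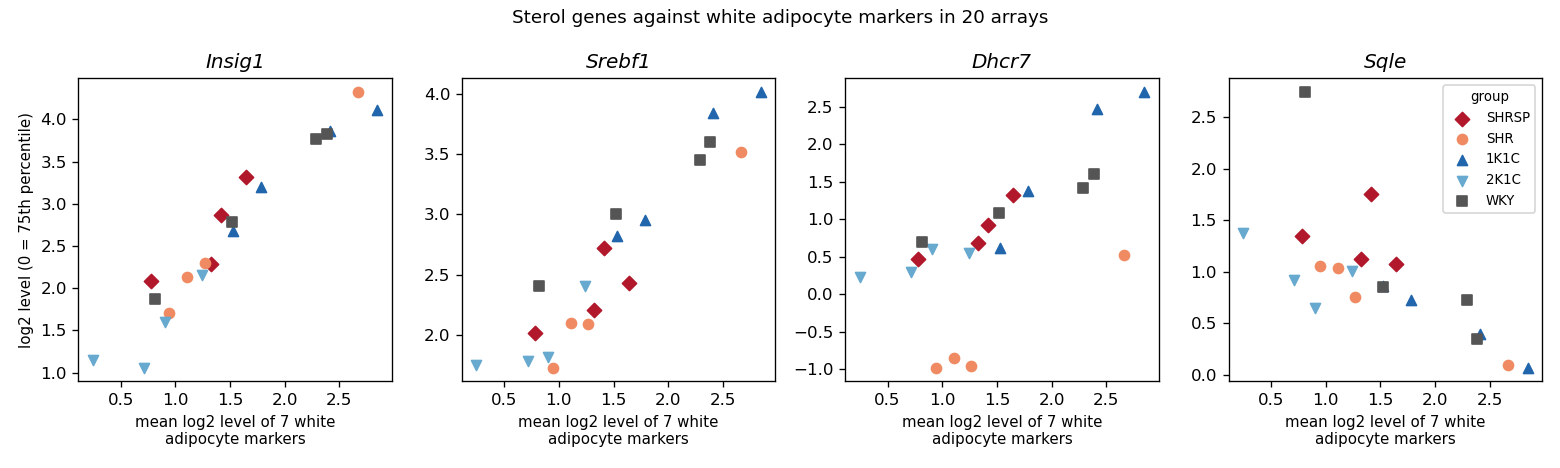
Levels of Insig1, Srebf1, Dhcr7 and Sqle (y axis, log2 relative to the 75th percentile) against the mean log2 level of 7 white adipocyte markers (x axis) in the 20 arrays, by group. Insig1 and Srebf1 rise with the markers through all 5 groups, and Dhcr7 has a positive slope too, with the SHR arrays below arrays of a similar marker mean. Sqle goes down as the markers rise, and replicate 1 of WKY combines the highest Sqle level (2.74) with the lowest marker mean of its group (0.81).

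With the white adipocyte mean as a term, the differences between the operations shrank: for 1K1C minus 2K1C Insig1 gave 0.22, Srebf1 0.31, Dhcr7 0.16, Insig2 0.31 and Srebf2 -0.24, each with an adjusted p of 0.999. The marker mean itself did not overlap between these groups, at 1.53 to 2.85 in 1K1C against 0.24 to 1.24 in 2K1C. The operation and the marker mean therefore cannot be told apart in this comparison. For 2K1C minus WKY, where all 7 adipocyte markers were lower (median -0.95), Insig1 gave -0.32 (adjusted p 0.464), Srebf1 -0.35 (adjusted p 0.37) and Insig2 -0.50 (adjusted p 0.211). The difference of Dhcr7 was -1.54 in SHR against WKY (adjusted p 0.000304 in limma), which lay on different slides. In SHRSP against SHR it was 1.59 (adjusted p 0.000388), and the difference of Abca1 between the inherited and the renovascular forms was -0.73 (adjusted p 0.00831). 3 further calls appeared in that fit: Srebf1 in SHR against WKY (-0.54, adjusted p 0.0403), and Dhcr7 (-0.90, adjusted p 0.000829) and Npc1 (-0.35, adjusted p 0.0431) in the inherited against the renovascular forms. The slope on the marker mean was called for 20.5% of all genes. The number of all genes called for a group difference in that fit is not given here, so these calls cannot be read as particular to sterol genes.

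The smooth muscle markers ran the other way between the operations. Their mean was 2.40, 0.31, 3.44 and 3.48 in 1K1C, against 4.57, 4.40, 4.02 and 2.96 in 2K1C and 2.96, 3.27, 3.82 and 3.14 in WKY. The groups overlapped, and replicate 2 of 1K1C was the lowest of all 20 arrays. All 7 markers were lower in 1K1C than in 2K1C (median -1.71, all 7 at an unadjusted p under 0.05 in limma and none called) and all 7 lower in 1K1C than in WKY (median -0.93). Their summed signal, on the log2 scale, ran from 7.12 to 8.31 in SHRSP, 6.31 to 8.34 in SHR, 4.33 to 7.39 in 1K1C, 6.78 to 8.29 in 2K1C and 6.87 to 7.83 in WKY. Their part in the differences of Insig1, Insig2, Srebf1, Dhcr7 and Srebf2 between the operations was not tested.

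Replicate 1 of WKY was the highest WKY array for most synthesis genes, but the lowest for Dhcr7 (0.70). It also had the highest neuron marker mean of all arrays (Prph, Th, Gap43 and Stmn2, with Dbh too dim to test). That mean was between -1.77 and -0.74 on every array of SHRSP, SHR and 1K1C, 1.51, -1.10, -1.07 and -1.34 in 2K1C, and 4.65, 0.51, 1.00 and -0.72 in WKY. The summed neuron signal, on the log2 scale, ran from 0.68 to 1.37 in SHRSP, 0.29 to 1.52 in SHR, 1.02 to 1.60 in 1K1C, 1.03 to 3.78 in 2K1C and 1.66 to 6.81 in WKY. The same array was the highest for brown adipocyte markers, at 3.09 against at most 0.85 on any other. In the fit with the groups and the neuron mean as terms, the slope was called for 3 of the 28 sterol genes, beside 2.48% of all genes: Sqle (0.37 ± 0.08, adjusted p 0.0151), Hsd17b7 (0.24 ± 0.06, adjusted p 0.0364) and Cyp51 (0.21 ± 0.05, adjusted p 0.0353). All 3 lie between squalene and cholesterol, and all 3 were positive. Of the slopes called over all genes, 366 were positive and 42 negative, so the shared sign is not particular to these 3. Replicate 1 of WKY had the highest level of all 20 arrays for each of the 3 genes (Sqle 2.74, Hsd17b7 -0.81 and Cyp51 1.33). Slopes without that array were not fitted, so they may rest on it. With the neuron mean as a term Dhcr7 in SHR against WKY was -2.07 with an adjusted p of 0.103. Whether nerve or brown fat in that sample has a part in these levels was not tested.

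**Figure D4:**
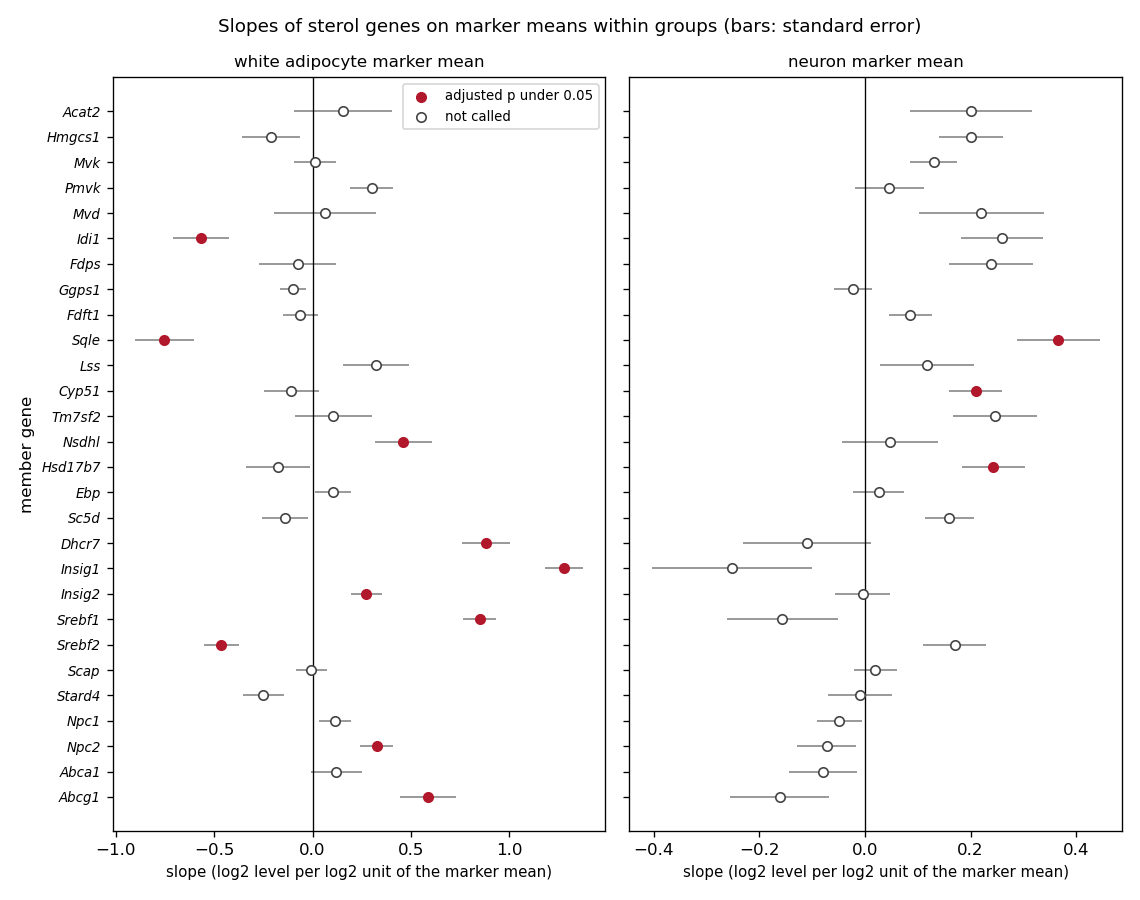
Slopes of the 28 sterol genes (rows, by role) on the white adipocyte marker mean (left) and on the neuron marker mean (right) within groups, in log2 units per log2 unit, with standard errors as bars; filled points have an adjusted p under 0.05. Insig1, Dhcr7 and Srebf1 have the steepest positive slopes on the adipocyte mean and Sqle, Idi1 and Srebf2 negative ones, while Sqle, Hsd17b7 and Cyp51 are the called slopes on the neuron mean.

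Of 54 other genes of the pathway, 52 had a probe, 44 were tested and none was called in any of the 7 comparisons. They cover further synthesis steps, the SREBP proteases, lipoprotein receptors, the liver X receptors, oxysterol enzymes and the fatty acid targets of SREBP1. At an unadjusted p under 0.05 limma gave 19 of them in 1K1C against 2K1C, 16 higher and 3 lower of the 44, beside 21.5% of all genes. The 9 fatty acid genes had the largest median of the 8 lists in that comparison: 8 of 9 were higher in 1K1C than in 2K1C with a median of 1.49, and 9 of 9 higher in 1K1C than in WKY with a median of 0.94, against 0.01 and 0.10 for all genes. The 7 white adipocyte markers were also all higher, with medians of 1.36 in 1K1C against 2K1C and 0.46 in 1K1C against WKY. With their mean as a term, chosen after the data were seen, the fatty acid medians were 0.28 (7 of 9 higher) and 0.50 (9 of 9 higher), and none was called in either comparison. Me1, which supplies reducing power for lipid synthesis, differed by 1.84 ± 0.52 between 1K1C and 2K1C (adjusted p 0.0744 in limma), and Acss2, which makes acetyl-CoA, by 1.61 ± 0.41 (adjusted p 0.0731). The mean of the 9 fatty acid genes was 4.30, 4.00, 3.29 and 2.93 in 1K1C against 2.29, 2.37, 2.76 and 2.36 in 2K1C, so these groups did not overlap.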

How the data were processed

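Single-colour Agilent arrays of total RNA from 20 mesenteric arteries were used. Per the file headers, the deposited intensities are the scanner signals that Agilent Feature Extraction 10.7.3.1 corrected for background; the deposited value table holds the same processed intensities, linear and unscaled. Here outlier spots were left out, log2 of the processed signal minus each array's 75th percentile was taken, and spots of a probe were averaged. A probe was kept where some group had it well above background on each of its 4 arrays, and the brightest probe stood for its gene, named through its accession in RefSeq where matched (18355 of 30367 probes). Of these, 16424 genes were fitted over the 5 groups with limma 3.58.1 in R 4.3.3 (lmFit, eBayes), with Benjamini-Hochberg adjustment at 0.05. Within-group array correlations were 0.934 to 0.995.

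The members and gene lists were chosen with earlier results of these data known. Every array's value is given for members called in a comparison, for the 3 with the largest absolute difference in each, and for Insig1, Srebf2, Abca1 and Abcg1; other members are given by range and count, and of the other pathway genes only called ones were to be named. The promoters of Dhcr7 and Srebf1, and Me1 and Acss2, were chosen after their values were seen. Values of single genes in the other pathway lists are otherwise not reported here. Simulated data for SHR against WKY held 16420 genes, with a spread estimated from the arrays. In them 62 of 100 genes changed by 1 and 97 of 100 changed by 2 on the log2 scale were recovered. Both sizes were in the same fit, which gave 9 false calls in all. Recovery may be lower in the measured arrays, where replicate 1 of WKY and replicate 1 of SHR lay apart for several genes. Same-numbered replicates of different groups correlated from -0.57 to 0.64 (median -0.02, 40 pairs), so the numbers do not pair arrays. Alternatives were other scalings, filters and probe rules, array weights, blocks, and leaving out each array; fits with a marker mean were added after the data were seen.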

Additional observations from a re-analysis of the deposited data

Results flagged for a closer look

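In 11 of 140 sets of 4 arrays (28 genes in 5 groups) 1 array lay far from the other 3, where chance flags about 1 in 20. Of the 11, 4 were replicate 1 of SHR: Dhcr7 at 0.53 (the others -0.97 to -0.84), Nsdhl at -0.31 (-1.47 to -1.40), Acat2 at 2.28 (1.02 to 1.17) and Insig2 at -1.81 (-2.60 to -2.48). Another 4 were replicate 1 of WKY: Acat2 at 3.19 (1.54 to 1.80), Fdps at 3.29 (1.39 to 1.65), Cyp51 at 1.33 (-0.04 to 0.09) and Mvd at 0.73 (-0.87 to -0.69). The remaining 3 were Acat2 at 2.50 in replicate 4 of 2K1C (1.35 to 1.52), Srebf1 at 2.40 in replicate 3 of 2K1C (1.75 to 1.82) and Npc1 at 0.87 in replicate 1 of SHRSP (0.82 to 0.83). Replicate 1 of SHR had the highest white adipocyte mean of its group (2.67) and replicate 1 of WKY the highest neuron mean of all arrays (4.65). In every group the replicate number was also the column of the array on its slide, so replicate and column cannot be told apart. Abca1 differed between the inherited and the renovascular forms by -0.74, a difference tested directly (adjusted p 0.00979 in limma).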

How the results depend on the processing

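Leaving out 1 array at a time gave 0 to 2 called members in SHR, SHRSP and 2K1C against WKY, 0 in 1K1C against WKY and in SHRSP against SHR, 0 to 9 in 1K1C against 2K1C and 1 to 3 in inherited against renovascular. The member medians then ran from -0.32 to -0.02 (SHR against WKY), -0.19 to 0.08 (SHRSP against WKY), -0.37 to -0.033 (2K1C against WKY), -0.03 to 0.14 (1K1C against WKY), 0.09 to 0.23 (SHRSP against SHR), 0.13 to 0.32 (1K1C against 2K1C) and 0.00 to 0.09 (inherited against renovascular). Without scaling the medians were -0.47 in 2K1C against WKY and 0.32 in inherited against renovascular, where 0 members were called. Array weights called 16 members in SHR, 14 in SHRSP and 11 in 2K1C against WKY, 6 in SHRSP against SHR and 10 in inherited against renovascular, with 7659, 5540, 4805, 880 and 3536 genes in all. With only the groups compared, 0 members were called in SHR against WKY and 3 in inherited against renovascular. With the white adipocyte mean as a term, 2 were called in SHR against WKY, 1 in SHRSP against SHR and 3 in inherited against renovascular, and Dhcr7 in 2K1C against WKY was 0.078. With the neuron mean as a term, 0 were called in SHR against WKY (median 0.072), 1 in SHRSP against WKY (median 0.17) and 4 in inherited against renovascular; the median in 2K1C against WKY was -0.025, and in 1K1C against WKY Sqle was 0.18 and Tm7sf2 0.033. The cause of these changes was not tested. Apart from array weights, these member counts are not set beside the number of all genes called in the same fit. They cannot be read as an excess of sterol genes. With the replicate number as a block (replicate block), Dhcr7 in SHR against WKY was -1.77 (adjusted p 0.0267) and Abca1 in inherited against renovascular -0.74 (adjusted p 0.0236). Signal over background limits Soat1 to a bound.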
